A study of Mus musculus with 8 samples.

Results

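Malat1, Neat1, Meg3, Rian, Mirg, H19 and Kcnq1ot1 are long non-coding RNAs that stay largely in the nucleus or come from imprinted loci. They were taken by gene symbol from the count tables, where all 7 were listed among 24460 genes, and 6 of the 7 passed the filter on low counts that left 14296 genes for testing. The libraries came from mouse embryonic fibroblasts (MEFs), wild-type cells grown subconfluent in culture, which were left without RHPS4 (0 µM, n = 3) or given 2 µM (n = 3) or 10 µM (n = 2) of it. RHPS4 is a small molecule that binds G-quadruplexes (G4), folded structures that G-rich DNA or RNA can form. The labels name exposures of 16 or 24 h for the study without saying which applied here. They number the samples within a dose but do not say whether these were separate cultures, so that the p values below measure the spread between the samples as labelled, which may be technical.

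Malat1 and Neat1 are abundant RNAs from neighbouring genes. Malat1 gathers in nuclear speckles, the storage sites of splicing factors, whereas Neat1 is the scaffold of paraspeckles, bodies built on its long isoform with the proteins Nono, Sfpq and Pspc1. Meg3, Rian and Mirg are expressed from the maternal copy of the Dlk1-Dio3 domain and host small RNAs, H19 is the maternally expressed partner of the growth factor gene Igf2 and carries a microRNA, and Kcnq1ot1 is a very long unspliced RNA, expressed from the paternal copy and antisense to Kcnq1, that silences neighbouring genes in cis.

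In the GENCODE annotation of GRCm38 (mm10), Malat1 lay at chr19:5795690-5802672 and Neat1 at chr19:5824708-5845478, both on the minus strand and each with a single exon block. Meg3 (chr12:109541001-109571726), Rian (chr12:109603940-109661716) and Mirg (chr12:109729764-109749460) followed one another on the plus strand. H19 (chr7:142575529-142578143) and the single exon of Kcnq1ot1 (chr7:143203458-143296549) were on the minus strand. The length in exons ran from 2460 bases for H19 to 93092 bases for Kcnq1ot1.

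Because RHPS4 binds G4 structures, the longest annotated transcript of each gene was searched on its own strand for GGG repeated 4 times with 1 to 7 bases between the runs, a pattern often used to mark possible G4 sites. The pattern was found 2 times each in Malat1, Neat1, Meg3 and H19 and 7 times in Kcnq1ot1, and these letters were not found in the searched transcripts of Rian or Mirg. Those transcripts had 8089 bases, where the exons of Rian sum to 18234, and 3822 bases, where those of Mirg sum to 7292. It was found in 17.7% of the longest transcripts of 23376 genes and in 8.27% of those of 1777 long non-coding genes. Per 100 kb there were 87.5 matches in H19, 28.6 in Malat1, 13.7 in Meg3, 9.63 in Neat1 and 7.52 in Kcnq1ot1. Over all longest transcripts there were 7.52, and over those of the long non-coding genes 5.67. Both H19 matches stood side by side at the 5′ end, at bases 1 to 20 and 21 to 43 of 2286. A match describes the letters only. Both matches of Malat1 and H19 and the shorter of the 2 in Neat1, whose values the results below turn on, are given 5′ to 3′ with the G runs in capitals.
Malat1, bases 4908 to 4923: GGGaGGGGGGGauGGG
Malat1, bases 6091 to 6115: GGGGaGGGaaaaGGGGGaaagcGGG
Neat1, bases 19349 to 19370: GGGcuGGGGcguGGGagacGGG
H19, bases 1 to 20: GGGuguGGGaGGGGGGuGGG
H19, bases 21 to 43: GGGuGGGGGuGGGGGGuaucGGG

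The RefSeq tables (GRCm38.p6) placed 2 mature microRNAs within H19, 3 within Meg3, 6 within Rian and 26 within Mirg. The mature microRNAs of H19, which share no seed, are given with the seed (bases 2 to 8) in capitals, since their host RNA had the largest estimate among the tested members. These libraries of fragmented total RNA did not measure the mature forms.
miR-675-5p: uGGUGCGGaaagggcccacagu
miR-675-3p: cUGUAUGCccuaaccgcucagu

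The libraries held between 10455965 and 26688121 counts, of which mtDNA features took 13.2% to 14.4% at 0 µM, 7.40% to 8.26% at 2 µM and 5.33% to 6.32% at 10 µM. No 2 libraries of a dose were alike within sampling noise, the lowest chi-square per degree of freedom being 3.23. The 12 fibroblast markers summed to 14380 to 14850 CPM (counts per 1000000, scaled by the TMM method) in the 0 µM libraries, 13090 to 13300 CPM in those of 2 µM and 12780 to 13080 CPM in those of 10 µM, so that the sum was highest without RHPS4. Of the 11 tested, 6 had an unadjusted p under 0.05 at 2 against 0 µM, where 0 were called. Over all tested genes 21.3% had such a p there and 0.497% were called. The markers of epithelial, endothelial, leukocyte, muscle, neural or pluripotent cells summed to at most 11.4 CPM for any list, and no marker of these lists was at 0 throughout a dose. The 4 neural markers summed to 4.01 to 4.61 CPM without RHPS4, 2.85 to 4.495 CPM with 2 µM and 9.14 to 9.34 CPM with 10 µM. Most of this lay in Tubb3, with means of 2.795, 2.36 and 7.30 CPM at the 3 doses. Of the 3 neural markers tested, 2 were above 0 and 1 below it at 10 against 0 µM. The part of these differences in the levels of the 7 genes was not tested. In bulk RNA, fewer cells with a transcript and less of it per cell cannot be told apart.

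None of the 6 tested long non-coding RNAs was called as changed between any pair of doses. A call required a fold change over 1.5 and, in edgeR's quasi-likelihood test with Benjamini-Hochberg adjustment over the 14296 genes, an adjusted p under 0.01. At 2 against 0 µM, 0 of the 6 tested members were called, where 0.497% of all tested genes were. Unadjusted p values under 0.05 were seen for 0 of the 6, against 21.3% of all genes, and DESeq2 called 0 members against 0.929% of the genes to which it gave an adjusted p. At 10 against 0 µM, 0 of the 6 were called against 3.09% of all genes, 0 had an unadjusted p under 0.05 against 29.4%, and DESeq2 called 0 against 3.99%. At 10 against 2 µM, 0 of the 6 were called against 5.51% of all genes and DESeq2 again called 0 against 6.68%, whereas Malat1, Neat1 and H19 had unadjusted p values under 0.05 (3 of 6, against 36.5% of all genes), as did H19 with DESeq2.

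The direction of these uncalled estimates is given as a description. At 2 against 0 µM 5 of the 6 were below 0, and at 10 against 0 and 10 against 2 µM 5 were above it. Rian went the other way each time. The median log2 fold change of the 6 tested members was -0.21 at 2 against 0 µM, 0.33 at 10 against 0 µM and 0.58 at 10 against 2 µM, and that of all tested genes was -0.01, 0.02 and 0.03. The comparisons share samples, so these medians are not independent of one another, and the 6 genes are not replicates of a dose. With total counts alone as the scaling, the median of all genes moved to 0.07, 0.23 and 0.16, and the members' median to -0.13, 0.55 and 0.72. The estimates and their intervals are drawn in the plot of fold changes, where Malat1, Neat1 and H19 at 10 against 2 µM are the only ones whose 95% intervals exclude 0.

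**Figure D1:**
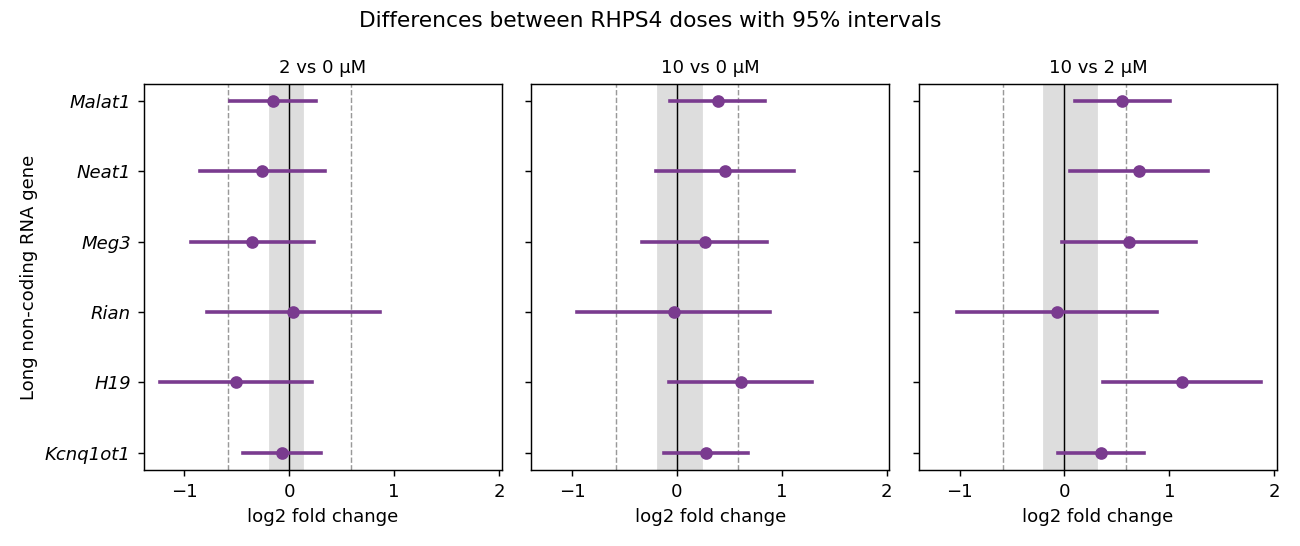
Log2 fold change of the 6 tested long non-coding RNAs in each comparison (points) with 95% intervals from edgeR's fit (lines), not adjusted for the number of genes. The grey band runs from the lower to the upper quartile of all 14296 tested genes and the dashed lines mark a fold change of 1.5. At 10 against 2 µM the point for H19 lies furthest to the right, at 1.12, and at 2 against 0 µM every interval spans 0.

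Ordered by level per kilobase of exon at 0 µM, Malat1 stood far above the others with 781 ± 194 CPM per kb (SD, n = 3), followed by Neat1 with 41.8 ± 15.6, H19 with 1.12 ± 0.511 and Meg3 with 0.156 ± 0.0211. Kcnq1ot1 (0.0767 ± 0.0189), Mirg (0.0541 ± 0.0149) and Rian (0.0463 ± 0.0219) closed the order, and the ranges of Kcnq1ot1 and Mirg and of Mirg and Rian overlapped, so that this end of the order was within the spread between libraries. The other neighbours in the order did not overlap at 0 µM. Malat1 ranked 18 of 22294 genes with a known length and Neat1 938, whereas Rian ranked 20235. At 2 and 10 µM the first 5 of the order were the same, and Rian and Mirg again overlapped at both doses. The 7 genes together took between 0.406% and 0.982% of a library's counts, nearly all of it from Malat1 and Neat1.

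**Figure D2:**
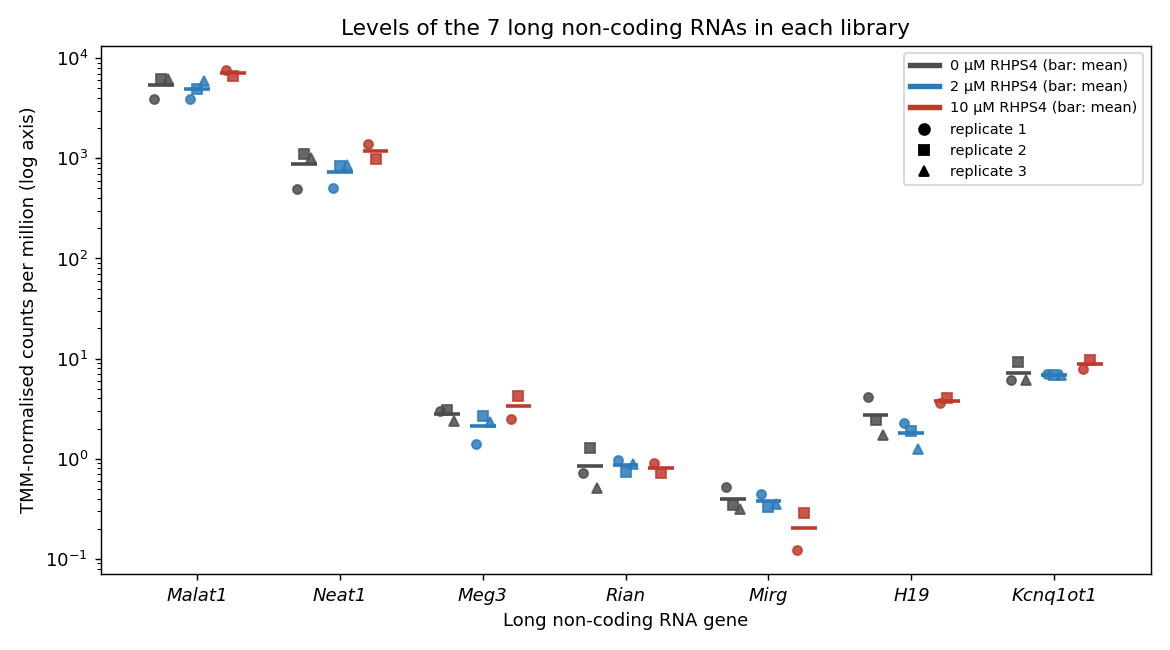
TMM-normalised CPM (log axis) of the 7 long non-coding RNAs in each of the 8 libraries, with dose by colour, replicate number by marker and a bar at the mean of a dose. Malat1 and Neat1 lie at or above 497 CPM in every library and the other 5 below 10 CPM, and the first replicates at 0 and 2 µM are the lowest of their doses for Malat1 and Neat1.

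Malat1 was measured at 3892, 6247 and 6227 CPM in the 0 µM libraries, 3895, 4875 and 5892 CPM in the 2 µM libraries, and 7625 and 6678 CPM in the 10 µM libraries. Both 10 µM libraries were above every other library, whereas the 0 and 2 µM libraries overlapped. The log2 fold change was 0.39 (SE 0.207, adjusted p = 0.235) at 10 against 0 µM, 0.55 (SE 0.206, adjusted p = 0.0764) at 10 against 2 µM and -0.16 (SE 0.186, adjusted p = 0.669) at 2 against 0 µM. At 10 against 0 µM Malat1 was the only tested member whose groups did not overlap, a pattern of higher values that 22.9% of all tested genes showed, where 3.09% of genes were called. The 95% interval of its fold change at 10 against 0 µM ran from 0.957 to 1.80, and the estimate dropped to 0.17 without the first 0 µM replicate.

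Neat1 was measured at 497, 1098 and 1010 CPM at 0 µM, 503, 832 and 849 CPM at 2 µM, and 1392 and 994 CPM at 10 µM. Its 10 µM libraries lay above those of 2 µM but overlapped with those of 0 µM. The log2 fold change was 0.71 (SE 0.299, adjusted p = 0.109) at 10 against 2 µM, with an interval of the fold from 1.04 to 2.58, and 0.46 (SE 0.299, adjusted p = 0.342) at 10 against 0 µM. The latter was 0.15 without the first 0 µM and 0.16 without the first 10 µM replicate. The annotation holds Neat1 as a single exon block of 20771 bases, so the counts do not separate its short isoform from the long one that builds paraspeckles.

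H19 showed the largest estimate of the 6 tested genes. It was measured at 4.15, 2.43 and 1.71 CPM at 0 µM (40, 49 and 43 counts), 2.29, 1.87 and 1.25 CPM at 2 µM (26, 23 and 21 counts) and 3.60 and 4.03 CPM at 10 µM (59 and 56 counts). The 10 µM libraries were above all those of 2 µM, and within the range of the 0 µM libraries, whose first replicate was the highest of all 8. At 10 against 2 µM the log2 fold change was 1.12 (SE 0.342, adjusted p = 0.0359), with an interval of the fold from 1.29 to 3.66, which did not pass the threshold. Over the alternatives its adjusted p ran from 0.00661 to 0.153. It was called in 2 of them, without the first 0 µM replicate (log2 fold change 1.09, adjusted p = 0.00917) and without the first 0 and 2 µM replicates together (1.31, adjusted p = 0.00661), the latter an alternative added after the values were seen. At 10 against 0 µM the estimate was 0.61 (SE 0.311, adjusted p = 0.219), and at 2 against 0 µM it was -0.51 (SE 0.330, adjusted p = 0.400).

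Kcnq1ot1 was measured at 6.12, 9.17 and 6.11 CPM at 0 µM, 6.96, 6.85 and 6.84 CPM at 2 µM, and 7.94 and 9.64 CPM at 10 µM. The 2 µM libraries were close together and below both 10 µM libraries, which overlapped with the 0 µM range. The log2 fold change was 0.35 (SE 0.189, adjusted p = 0.209) at 10 against 2 µM and 0.28 (SE 0.183, adjusted p = 0.342) at 10 against 0 µM. With Malat1, Neat1 and H19 it made 4 of the 6 tested members whose 10 µM libraries all lay above the 2 µM libraries, a pattern of 27% of all tested genes, of which 5.51% were called. Kcnq1ot1 shares 121 exon bases with Kcnq1 on the opposite strand, and the strand setting of the counting is not given in the sources used here, so that reads of the pair may not be separated there.

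The RNAs of the Dlk1-Dio3 domain were all low. Meg3 was measured at 3.01, 3.07 and 2.38 CPM at 0 µM, 1.41, 2.69 and 2.32 CPM at 2 µM, and 2.503 and 4.244 CPM at 10 µM. All 3 doses overlapped, and the log2 fold change at 10 against 2 µM was 0.62 (SE 0.292, adjusted p = 0.153). Rian rested on 7 to 26 counts a library, at 0.727, 1.29 and 0.516 CPM at 0 µM, 0.970, 0.734 and 0.892 CPM at 2 µM, and 0.916 and 0.719 CPM at 10 µM. Its estimates were -0.07 (SE 0.435) at 10 against 2 µM and -0.03 (SE 0.419) at 10 against 0 µM, with overlapping groups throughout, and its interval at 10 against 0 µM allowed a fold from 0.518 to 1.85.

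Mirg, which hosts most of the microRNAs counted above, did not pass the filter on low counts that came before edgeR's test. The 0 µM libraries held 5, 7 and 8 counts, those of 2 µM held 5, 4 and 6, and those of 10 µM held 2 and 4. Pooled over the libraries of a dose this gave 0.364 CPM (95% exact Poisson interval 0.222 to 0.562), 0.371 CPM (0.208 to 0.612) and 0.198 CPM (0.0727 to 0.431). The intervals overlapped, which is not a test. On so few counts the overlap shows neither a difference nor the lack of one. DESeq2, run without that filter, estimated a log2 fold change of -0.02 (SE 0.754) at 2 against 0 µM, -0.96 (SE 0.922) at 10 against 0 µM and -0.93 (SE 0.939) at 10 against 2 µM, and gave no adjusted p. The Poisson intervals hold the counting error alone. They leave out the spread between libraries and the copying of 1 molecule into several fragments by PCR.

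The spread between libraries of the same dose was unusually wide for the abundant pair. Among 2196 genes with a mean of at least 100 CPM, the SD of log2 CPM within doses was 0.505 for Neat1, the 4th largest, and 0.318 for Malat1, the 50th largest, where the median gene had 0.0960. The genes above Neat1 were Lars2, Hist1h2ak and Polr2a. H19, with an SD of 0.472, exceeded 95.2% of 1789 genes within a factor of 2 of its level, Meg3 (0.390) exceeded 87.1% of its like, and Rian (0.393) was at the middle, with 50.2% of genes below it.

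**Figure D3:**
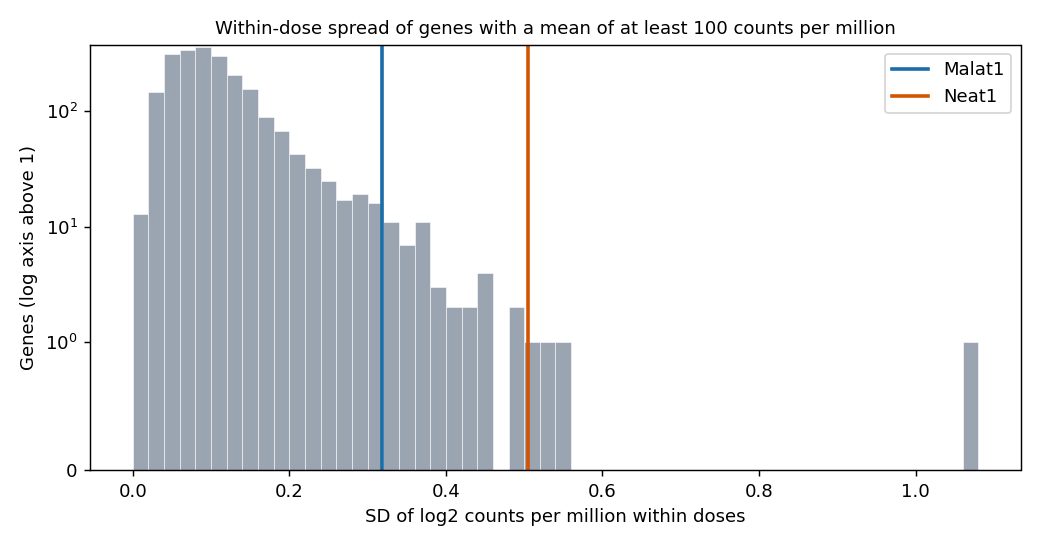
Number of genes (log axis above 1) by the SD of log2 CPM within doses, over the 2196 genes with a mean of at least 100 CPM. The lines mark Malat1 at 0.318 and Neat1 at 0.505, both in the upper tail of a distribution whose median is 0.0960.

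Malat1 and Neat1 rose and fell together from library to library. Over the 8 libraries Pearson's r of their log2 CPM was 0.969 (exact permutation p = 0.000322, adjusted p = 0.00483 over the 15 pairs of tested members) and Spearman's rho was 0.929 (exact permutation p = 0.00223, adjusted p = 0.0334), both two-sided. Without the first replicates of 0 and 2 µM, the libraries farthest from the median, r was 0.872, and for the deviations from the dose means it was 0.959. No other pair passed an adjusted p of 0.05, the smallest of the others being 0.573 for r and 0.623 for rho. These correlations and their tests were added after the values were seen, and the permutations moved libraries across doses. By r, Neat1 was the 8th nearest to Malat1 of 14295 other genes, and Malat1 the 5th nearest to Neat1. The 2 RNAs share their libraries, their neighbourhood on chromosome 19 and a length above most genes.

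The deviations of Malat1 from the mean of its dose were -0.45, 0.23 and 0.22 in log2 CPM for the 0 µM libraries, -0.31, 0.02 and 0.29 for those of 2 µM, and 0.10 and -0.10 for those of 10 µM. Those of Neat1 were -0.72, 0.42 and 0.30, then -0.49, 0.23 and 0.26, and 0.24 and -0.24. For H19 they were 0.66, -0.09 and -0.57, then 0.36, 0.09 and -0.45, and -0.08 and 0.08. The first replicates of 0 and 2 µM, which were also the smallest libraries of their doses, thus held the lowest Malat1 and Neat1 and the highest H19. As a description over the 8 deviations, r was -0.933 between H19 and Malat1 and -0.836 between H19 and Neat1, while r of the levels themselves was 0.00507 and -0.0349. A measure of transcript length moved in the same libraries. The median deviation of the 10% of genes with the longest exons in sum, minus that of the shortest 10%, was -0.20, 0.10 and 0.09 in the 0 µM libraries, -0.10, -0.003 and 0.10 in the 2 µM libraries, and 0.06 and -0.06 in those of 10 µM. The part of depth and of this difference by length in the levels of Malat1, Neat1 and H19 was not tested. With a correction for exon length, which was chosen after the values were seen, 0 members were called in any comparison.

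**Figure D4:**
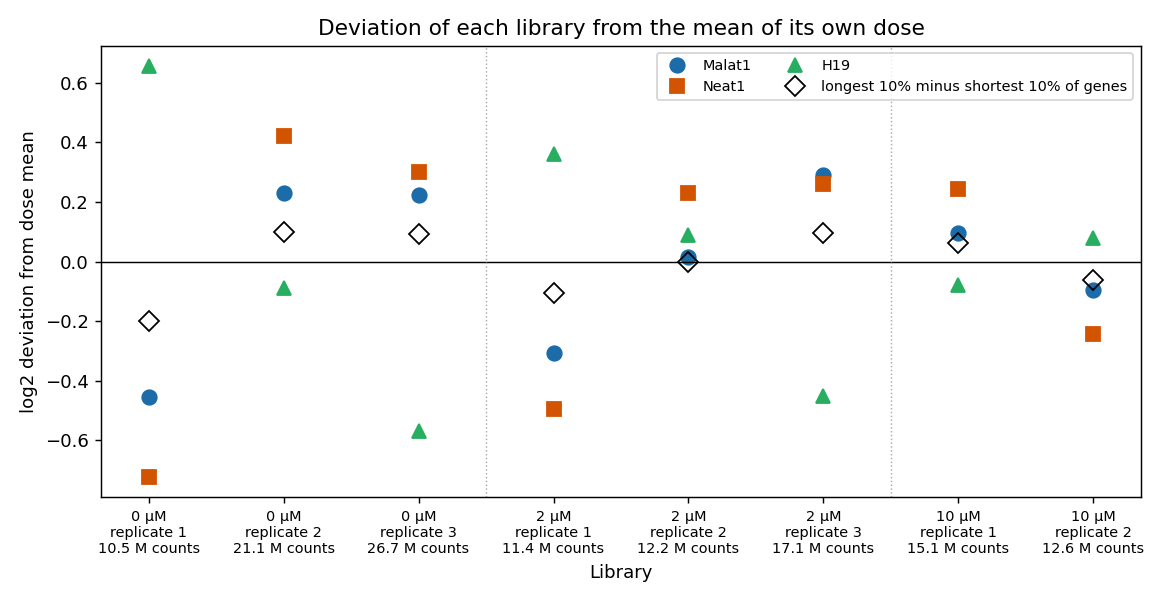
Deviation of Malat1, Neat1 and H19 in log2 CPM, and of the longest 10% minus the shortest 10% of genes by exon length (open diamonds), from the mean of the library's own dose, with the total counts (M, 1000000 counts) under each library. At 0 µM replicate 1 Neat1 is at -0.72 and H19 at 0.66, and Malat1, Neat1 and the diamonds lie on the same side of 0 in every library except at 2 µM replicate 2, where the diamond is at -0.003.

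Ratios within a library do not depend on the scaling between libraries. At 0, 2 and 10 µM the log2 ratio of Neat1 to Malat1 counts averaged -2.70 ± 0.240, -2.77 ± 0.203 and -2.60 ± 0.208 (SD, n = 3, 3 and 2), and its differences between doses, at most 0.16, were within the spread between replicates. H19 to Igf2 averaged 2.35 ± 0.541, 1.73 ± 0.185 and 3.23 ± 0.596 at the 3 doses, with both 10 µM libraries (2.81 and 3.65) above those at 2 µM (1.82, 1.85 and 1.52). Igf2 itself rested on 4 to 12 counts a library, at 0.288 to 0.617 CPM. Mirg to Meg3 averaged -2.77 ± 0.322, -2.36 ± 0.688 and -3.89 ± 0.232, and both 10 µM libraries lay below the other 6. Since Mirg had 2 to 8 counts a library, this ratio depended on the pseudocount of 0.5, and with 5 counts added the 10 µM differences were -1.06 against 2 µM and -0.58 against 0 µM. Rian to Meg3 averaged -1.79 ± 0.490, -1.23 ± 0.657 and -1.96 ± 0.765, with overlapping groups. The 10 µM differences of H19 to Igf2 against 2 µM and of Mirg to Meg3 against 2 µM (-1.53) and 0 µM (-1.12) gave a two-sided exact permutation p of 0.2, the smallest that 3 against 2 libraries allow, and the adjusted p over the 12 ratio tests was at least 0.6. An exact test of 3 against 2 libraries cannot reach 0.05.

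The genes whose log2 CPM over the 8 libraries was most like that of a member are given as a description. For Malat1 they were Ubr2 (r = 0.994), Ubn2 (0.991) and Dennd4a (0.991), and for Neat1 they were Mycbp2 (0.986), Dennd4a (0.981) and Gm17066 (0.971). For H19 they were Slc50a1 (0.992), Procr (0.982) and Itm2c (0.978). For Meg3 they were 9430018G01Rik (0.959), Trim7 (0.958) and Nanog (0.956), for Rian Creb3l4 (0.922), Miat (0.898) and Wdr83 (0.861), and for Kcnq1ot1 Abcc9 (0.950), Aifm3 (0.949) and Abat (0.938). Which genes came first depended on the measure, since of the 18 pairs 1 was still among the 3 nearest by Spearman's rho, 0 by the deviations from the dose means (r at least 0.875) and 17 with TMM over nuclear genes only. Of the 17 different genes named, edgeR and DESeq2 called 0 in any comparison, and 7 had an unadjusted p under 0.05 at 10 against 2 µM. Over all tested genes 36.5% had such a p there. Among the 100 genes most like Malat1 the median exon length was 8043.5 bases and among those most like Neat1 7773 bases, against 3477 bases for H19 and 4535 bases over all tested genes with a known length.

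Of the genes named here as neighbours of the members on the chromosomes, edgeR and DESeq2 called 0 in any comparison, and 2, Rtl1 and Tspan32, had an unadjusted p under 0.05 at 10 against 2 µM and 0 in the others. Over all genes such a p was seen for 36.5% at 10 against 2, 29.4% at 10 against 0 and 21.3% at 2 against 0 µM. Beside Neat1 and Malat1, Frmd8 had log2 fold changes from -0.12 to 0.01. Beside Meg3, Rian and Mirg, Rtl1, an imprinted retrotransposon-derived gene of the opposite strand, had 0.88 at 10 against 2 µM (adjusted p = 0.104), while Begain had -0.40 and Ppp2r5c -0.07. Beside H19, Mrpl23 had -0.15 and Tspan32 0.93 (adjusted p = 0.123) at 10 against 2 µM. Beside Kcnq1ot1, Trpm5 had 0.31 (adjusted p = 0.601). Cdkn1c, a cell cycle inhibitor that Kcnq1ot1 silences in cis, was at 0.753 ± 0.25, 0.630 ± 0.323 and 0.803 ± 0.186 CPM at the 3 doses, with a log2 fold change of 0.35 (SE 0.467, adjusted p = 0.629) at 10 against 2 µM. Dlk1, the paternally expressed partner of Meg3, had 4, 11 and 7 counts in the 0 µM libraries, 0, 5 and 2 in those of 2 µM, and 9 and 12 in those of 10 µM, and Kcnq1 had 1 to 18 counts a library, too few to test. Of the protein genes of the domains, 0 of 2 tested in Dlk1-Dio3 and 0 of 7 in the Kcnq1 domain were called in any comparison by edgeR or DESeq2. At 10 against 2 µM 1 of 2 and 5 of 7 had an unadjusted p under 0.05, against 36.5% of all genes. Of the H19-Igf2 genes 0 of 4 could be tested.

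The mRNAs of proteins from paraspeckles and from nuclear speckles, the bodies where Neat1 and Malat1 are found, were measured in the same libraries. Of 27 paraspeckle protein genes, 1 was called lower at 10 against 2 µM, where 5.51% of all genes were called. At 10 against 0 µM 0 were, against 3.09% of all genes, while 14 of 27 had an unadjusted p under 0.05, against 29.4% of all genes. DESeq2 called 1 there, against 3.99% of the genes to which it gave an adjusted p. The list had a median log2 fold change of -0.25 and -0.20, against 0.03 and 0.02 for all genes. The call was Hnrnph1, an RNA-binding protein that recognises G runs, with -0.59 (SE 0.132, adjusted p = 0.00896). Sfpq, at 333 ± 8.89, 361 ± 20.6 and 245 ± 33.8 CPM, had -0.56 (SE 0.0942, adjusted p = 0.00189) and stayed under the fold threshold, while Nono had -0.35 (SE 0.105, adjusted p = 0.0339) and Pspc1 -0.25 (SE 0.101, adjusted p = 0.0904). Of 23 genes of speckle and SR proteins, 2 were called lower at 10 against 2 µM, again beside 5.51% of all genes, the splicing factors Srsf2 with -0.79 (SE 0.0868, adjusted p = 0.000155) and Srsf1 with -0.60 (SE 0.0899, adjusted p = 0.00101), and the median was -0.29. At this comparison DESeq2 called 3 and 5 of the lists, against 6.68% of the genes to which it gave an adjusted p. An unadjusted p under 0.05 was seen there for 16 of the 27 and 16 of the 23, against 36.5% of all genes. At 10 against 0 µM edgeR called 0 of the 23, with 14 at an unadjusted p under 0.05, and DESeq2 called 1. The shares of all genes there were 3.09%, 29.4% and 3.99%. The paraspeckle count was 0 when the third 0 µM, the first 2 µM or the second 10 µM replicate was left out, 2 without the second 0 µM replicate, 3 without the first 0 µM or the third 2 µM replicate and 4 without the first 10 µM replicate. The speckle count was 1 without the first 2 µM or the second 10 µM replicate, 4 without the first or the second 0 µM replicate, 5 without the third 2 µM replicate and 6 without the first 10 µM replicate. At 10 against 0 µM the paraspeckle count was 1 without the first 0 µM and 3 without the first 10 µM replicate, and the speckle count 1 without the second 0 µM and 2 without the first 10 µM replicate. At 2 against 0 µM, 0 of the 27 and 0 of the 23 were called by edgeR and by DESeq2, with 2 and 5 at an unadjusted p under 0.05. Over all genes 21.3% had such a p there.

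Other long non-coding RNAs did pass the threshold in the same libraries. Of 30 tested, 3 were called higher at 10 against 0 µM (3.09% of all genes were called) and 4 higher and 1 lower at 10 against 2 µM (5.51% of all genes). In these comparisons DESeq2 called 2 and 5, against 3.99% and 6.68% of the genes to which it gave an adjusted p. At 2 against 0 µM edgeR and DESeq2 called 0, and 11 had an unadjusted p under 0.05, against 21.3% of all genes. Trp53cor1, a p53-induced nuclear RNA, was at 0.610 ± 0.283, 0.476 ± 0.0830 and 2.16 ± 0.310 CPM at the 3 doses, a log2 fold change of 1.66 (SE 0.309, adjusted p = 0.00543) at 10 against 0 µM and 2.19 (SE 0.354, adjusted p = 0.00155) at 10 against 2 µM, on 3 to 39 counts a library. Firre, a nuclear RNA from the X chromosome, was at 28.0 ± 1.62, 25.9 ± 4.16 and 45.3 ± 5.05 CPM, with 0.68 (SE 0.125, adjusted p = 0.00500) and 0.80 (SE 0.127, adjusted p = 0.00137). Dnm3os, antisense to Dnm3, was higher at 10 against 2 µM by 0.68 (SE 0.126, adjusted p = 0.00335), and Snhg3, a host of small nucleolar RNAs, was lower with -0.69 (SE 0.114, adjusted p = 0.00172). Against 0 µM, Dnm3os had -0.45 (adjusted p = 0.0528) at 2 µM and 0.23 (adjusted p = 0.240) at 10 µM. The other calls were Mir99ahg at 10 against 0 µM and Snhg18 at 10 against 2 µM, which fell outside the naming rule and were named after their values were seen. The count of 3 was 0 without the second 0 µM, the first 10 µM or the second 10 µM replicate and 1 without the third 0 µM or the second 2 µM replicate. The count of 5 was 2 without the second 2 µM, 3 without the first 10 µM and 1 without the second 10 µM replicate.

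The counts of called genes in the related lists stand beside the 5.51% of all genes called at 10 against 2 µM and 3.09% at 10 against 0 µM. At 10 against 2 µM the share was above that of all genes in the imprint maintenance and IGF lists. It was below it in the imprinted, decay and small RNA lists, and no list was tested against it. Of the 30 imprinted genes tested outside these domains, edgeR and DESeq2 called 0 at 2 against 0 and 10 against 0 µM. An unadjusted p under 0.05 was seen for 8 and 9 of them, against 21.3% and 29.4% of all genes. At 10 against 2 µM 1 was called, Sfmbt2, an imprinted Polycomb gene of rodents, which rose by 0.70 (SE 0.114, adjusted p = 0.00158). Among the 20 imprint maintenance and Polycomb genes 2 were called, where Uhrf1, which recruits the maintenance DNA methyltransferase, fell by 0.71 (SE 0.0927, adjusted p = 0.000447) and the histone methyltransferase gene Ezh1 rose by 0.59 (SE 0.0988, adjusted p = 0.00190) at 10 against 2 µM. Against 0 µM, Ezh1 had -0.34 (adjusted p = 0.0574) at 2 µM and 0.24 (adjusted p = 0.117) at 10 µM. Of the 12 tested genes of the IGF axis 2 were called at 10 against 2 µM, where the receptor substrate Irs1 fell by 0.76 (SE 0.0750, adjusted p = 7.02e-05) and the binding protein Igfbp4 was higher by 0.59 (SE 0.0855, adjusted p = 0.000870). Against 0 µM, Igfbp4 had -0.55 (adjusted p = 0.00385, under the fold threshold) at 2 µM and 0.03 (adjusted p = 0.824) at 10 µM. At 10 against 2 µM DESeq2 called 1 of the 12, against 6.68% of the genes to which it gave an adjusted p. At 10 against 0 µM it called 1, against 3.99%. At 10 against 0 µM edgeR called 0 and 5 had an unadjusted p under 0.05, against 29.4% of all genes. Of 22 genes of nuclear RNA processing and decay, 1 was called higher at 10 against 2 µM, Zfc3h1 of the nuclear decay of polyadenylated RNA, with 0.59 (SE 0.0997, adjusted p = 0.00198). At this comparison 19 of the 22 were below 0, with a median log2 fold change of -0.25 against 0.03 for all genes. There 12 had an unadjusted p under 0.05, against 36.5% of all genes. Of 6 small structured RNAs 0 were called by edgeR or DESeq2, with 1 at an unadjusted p under 0.05 at this comparison, against 36.5% of all genes. Single libraries decided several of these calls. Sfmbt2 was lost without the second 10 µM replicate and 1 of the 2 calls of the imprint maintenance list without the first 2 µM replicate. In the IGF list 1 call was left without the first or second 0 µM, the third 2 µM or either 10 µM replicate, while at 10 against 0 µM 1 call was made without the first 0 µM, the third 2 µM or the second 10 µM replicate. The decay list had 0 calls without the second 0 µM, the first or second 2 µM or the second 10 µM replicate and 2 without the third 2 µM replicate.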

How the data were processed

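Ribosomal RNA-depleted, strand-specific total RNA libraries of MEFs (3 at 0 µM, 3 at 2 µM and 2 at 10 µM RHPS4) were analysed. The authors deposited whole-number counts per gene and library without normalization. Per the labels and the study's methods, reads of 75 bases were trimmed with Trim Galore and cutadapt, aligned to mm10 with STAR 2.5.2a, and counted with featureCounts. Uniquely mapped fragments were counted, so stretches that a gene shares with other places in the genome can lower its count. Stretches of 75 bases shared with another gene's transcript made 5.66% of Malat1, 7.63% of Meg3 and less than 1% of each other member. The 2 genes that share stretches with Meg3, Gm26906 and Mir770, overlap it at its own locus, as do the 3 that share stretches with Neat1. Such stretches need not map to a second place. The featureCounts strand setting and annotation are not given in the sources used here.

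Tests were run in edgeR 4.0.16 under R 4.3.3 (filterByExpr, TMM, glmQLFit, glmQLFTest) over all 8 libraries with dose as the only factor; the 10 µM pair thus borrowed its spread from the whole fit. CPM are TMM-normalised counts per 1000000, and log2 CPM used a prior count of 2. The SE of a log2 fold change is its size over the square root of F. A call needed a fold change over 1.5 and a Benjamini-Hochberg adjusted p under 0.01. DESeq2 1.42.0, with the study's thresholds, was an alternative, and its adjusted p was NA for Rian and Mirg. In the smallest and the largest library 3 counts corresponded to 0.287 and 0.112 per 1000000 total counts. Ratios used 0.5 added to each count, with 5 as an alternative. The tests were checked on simulated counts with known changes, drawn with the same spread setting for every gene. That check does not show whether a change would be called in members as variable as Neat1 or as low as Mirg.

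Genes were matched to GENCODE M21 by symbol (23334 of 24460). Exon length is the union of exons, and levels between genes are compared per kb only. Figures were drawn with matplotlib in Python 3.11.15.

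The members and gene lists were chosen with earlier results of these data known. Named are all 7 members, Igf2, Cdkn1c, Dlk1, Kcnq1, Nono, Sfpq and Pspc1, the nearest tested genes on either side, at most 4 called genes of each list (smallest p first) and the 3 genes with the highest r to each tested member. The genes ranked above Neat1 by spread were named after their values were seen. One neighbouring gene is not reported here. The marker lists had 12 fibroblast genes, of which Pdgfrb was called lower at 10 against 0 µM and Twist2 lower at 10 against 2 µM (not without the first or second 2 µM or the second 10 µM replicate), and 4 neural genes, of which Tubb3 was called higher at both. No other marker list had a call. Alternatives were RLE, TMM over nuclear genes, total counts, other filters on low counts, DESeq2, fits of the 2 groups compared alone, no minimum fold change, the replicate block, GC correction and each library left out. Correction for exon length and leaving out the first 0 and 2 µM replicates together were added after the data were seen. So were the correlations among members and the comparison of the longest with the shortest genes.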

Additional observations from a re-analysis of the deposited data

How the results depend on the processing

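Of 357 member fold changes from 20 alternative settings, 12 changed direction, all with adjusted p of at least 0.476 in edgeR's test, and 2 were newly called, both for H19. The count of called members stayed at 0 at 2 against 0 and 10 against 0 µM in every setting run. At 10 against 2 µM it was 1 without the first 0 µM replicate and 1 without the first 0 and 2 µM replicates together, and it ran from 0 to 1 when each library was left out. The cause was not tested. With total counts only, Kcnq1ot1 at 2 against 0 µM turned to 0.0065 and Rian to 0.18 at 10 against 0 µM and 0.065 at 10 against 2 µM. With the exon length correction Kcnq1ot1 was 0.11 at 2 against 0 µM. Without the first 0 and 2 µM replicates Rian was -0.078 at 2 against 0 µM. Leaving out single libraries, Rian ran from -0.33 to 0.57, -0.39 to 0.48 and -0.30 to 0.043 in the 3 comparisons, Kcnq1ot1 at 2 against 0 µM from -0.20 to 0.17 and Meg3 at 10 against 0 µM from -0.17 to 0.58, and H19 at 2 against 0 µM was -0.22 without the first 0 µM and -0.26 without the third 2 µM replicate. H19 at 10 against 0 µM was 0.30 without the third 0 µM replicate, and Neat1 at 10 against 2 µM was 0.41 without the first 10 µM replicate. The difference in the log2 ratio of Neat1 to Malat1 ran from -0.20 to 0.031 at 2 against 0 µM and from -0.048 to 0.25 at 10 against 0 µM, and that of Rian to Meg3 at 10 against 0 µM from -0.71 to 0.37.

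The replicate numbers share no stated culture, so they were not treated as pairs. The deviations of same-numbered libraries correlated by 0.199, 0.0845 and 0.161 between 0 and 2 µM. Each 0 and 2 µM library correlated best with its own number of the other of these doses. With 10 µM the same-numbered correlations were at most -0.0212. The deviations of the 2 libraries at 10 µM mirror each other, so each such value stands beside another of equal size and opposite sign. With the replicate block 0 members were called in each comparison, with Malat1 at 0.71 (adjusted p = 0.0167), Neat1 at 0.94 (adjusted p = 0.0423) and H19 at 0.84 (adjusted p = 0.0485) at 10 against 2 µM in edgeR's test. Calls over all genes moved by over 1.5 times at 2 against 0 µM, from 71 to 109 with DESeq2 and 107 without a minimum fold change, and at 10 against 0 µM from 442 to 914 with total counts only, 747 without a minimum fold change and 685 without the first 0 and 2 µM replicates. At 10 against 2 µM there were 788, and 1539 without a minimum fold change. Leaving out single libraries gave 6 to 144, 235 to 633 and 444 to 884 calls. Mirg, Igf2, Dlk1 and Kcnq1 are limited by their counts, at 18 or fewer a library.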
